A study of Mus musculus with 11 samples.

Results

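Apolipoproteins are the protein parts of lipoproteins, the particles that carry cholesterol, triglycerides and phospholipids between cells. The described genes are Apoa1, Apoa2, Apoa4, Apoc1, Apoc3, Apod, Apoe and Apom, chosen as every array probe whose single annotated gene symbol was 1 of these names. Each gene had 1 such probe, so the set holds 8 of 18048 named genes and of 34999 probes. The choice was made with the fasting changes of these genes in hypothalamus and cerebellum known, so their values in both comparisons are given as a description. No p-value is given for a member, and the calls that the fit over all probes made among them are counted with nothing read from them.

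The study asked how a fast alters transcripts in the hypothalamus, a centre of appetite control, and in the cerebellum. All mice were wild-type SV/129 females aged 10 weeks. The fasted mice went without food for 16 hours from the onset of darkness, while the fed mice kept chow, and both had water. Every pool of RNA joined 6 mice of 1 feeding state and 1 region, and the 4 pools were each measured on 3 CodeLink arrays. After 1 array of the fasted cerebellum was discarded by the authors, 11 remained. Both regions came from the same mice. Arrays of a pool repeat the same RNA, so their spread holds no difference between mice, and the tests below compare pools. The deposited values are ratios, each probe divided by the median of the 3 fed arrays of its own region. A level therefore cannot be compared between genes or between regions, the regions' own marker genes cannot be checked by level, and a probe near background cannot be told from a bright one. In such bulk RNA, fewer cells of a type and less RNA per cell cannot be told apart either.

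In blood, apolipoproteins of the A and C groups come from liver and intestine and exchange between particles. Apoa1 is the main protein of high-density lipoprotein, Apoc3 restrains lipoprotein lipase, and Apoa4 is released by the intestine after a fatty meal and acts in the brain as a satiety signal. The brain makes lipoproteins of its own, mainly with Apoe from astrocytes. Apod is a lipocalin of glia and of cells around blood vessels, and Apom is a lipocalin that carries sphingosine 1-phosphate on high-density lipoprotein.

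The members with the largest differences were Apoa4 in cerebellum and Apom in hypothalamus, and neither had a difference of that size in the other region. Apoa4 was 6.52-fold lower in the fasted cerebellum (n = 2 arrays) than in the fed cerebellum (n = 3), and Apom was 2.38-fold lower in the fasted hypothalamus (n = 3 against 3). The other members differed by at most 0.49 log2 in either region.

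Apoa4, after scaling each array to a median of 1, had ratios of 0.221 and 0.145 on the fasted cerebellum arrays against 1.00, 0.838 and 1.89 on the fed ones. Both fasted arrays lay below every fed array, although the fed arrays of this 1 pool differed from each other by over 1 log2 unit. The change was -2.71 ± 0.35 log2 (SE of the limma fit), and 0.174% of all probes had a larger change in this comparison. In hypothalamus the fasted ratios of Apoa4 were 1.58, 1.31 and 1.35 and the fed ratios 1.37, 1.00 and 0.834. These groups overlapped, since the highest fed array lay above 2 of the 3 fasted arrays, and the difference was 0.43 ± 0.31 log2. That SE takes in the spread of all 4 pools, and it was 0.19 in a fit of the hypothalamus arrays alone. The residual SD of the Apoa4 probe, 0.42 log2, was larger than that of 93.0% of probes.

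Apom had ratios of 0.443, 0.470 and 0.357 on the fasted hypothalamus arrays against 1.00, 1.08 and 0.932 on the fed ones. All fasted arrays lay far below all fed arrays, a change of -1.25 ± 0.14 log2, and 1.15% of all probes had a larger one. In cerebellum the groups overlapped, with fasted ratios of Apom of 0.883 and 1.08 against fed ratios of 1.00, 1.23 and 0.930. The difference there was -0.10 ± 0.15 log2, and it was 0.04 without fasted replicate 1 and 0.02 without fed replicate 2 of the cerebellum.

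**Figure D1:**
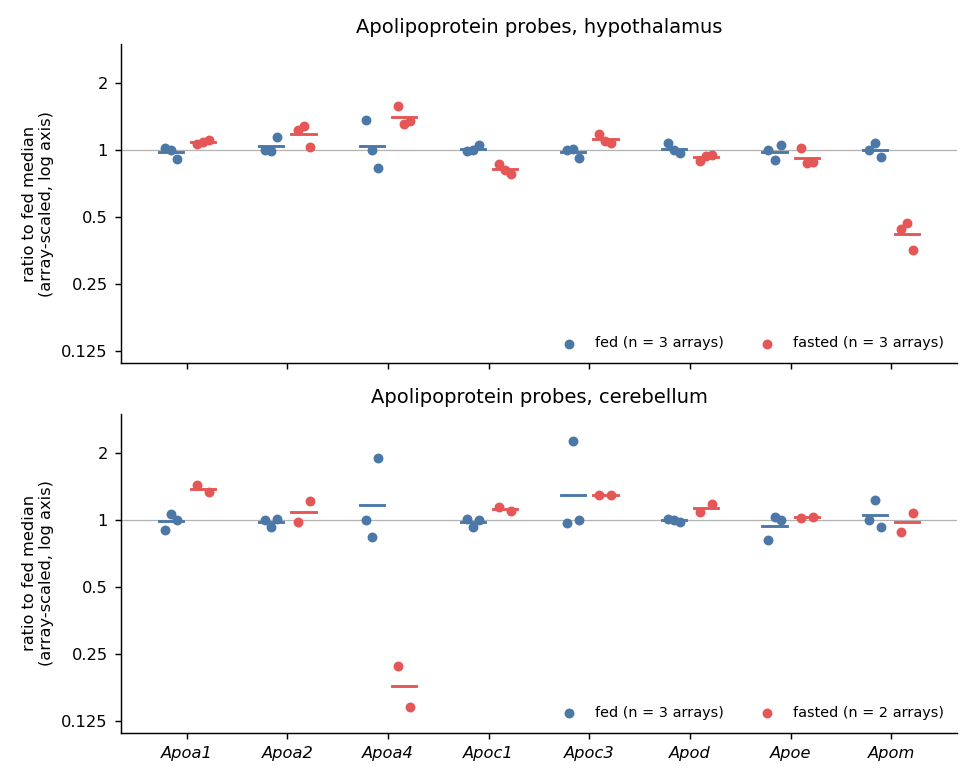
Ratio to the fed median of the region, after scaling each array to a median of 1 (log axis), for the 8 apolipoprotein probes in hypothalamus (top) and cerebellum (bottom). Points are arrays and bars are means on the log scale. The fasted arrays of Apom in hypothalamus (0.357 to 0.470) and of Apoa4 in cerebellum (0.145 and 0.221) lie far below the fed arrays, and 1 fed cerebellum array of Apoc3 stands at 2.26.

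Apoa1 was the member with the largest higher value in the fasted cerebellum. Its ratios there were 1.43 and 1.33 in the fasted pool and 0.896, 1.06 and 1.00 in the fed pool, with no overlap and a difference of 0.49 ± 0.08 log2. In hypothalamus the fasted ratios, 1.06, 1.09 and 1.11, also lay above the fed ratios of 1.03, 1.00 and 0.911, but the gap was small and the difference was 0.15 ± 0.07 log2. Apoa1 and Apoa4 are near neighbours on chromosome 9, yet in the fasted cerebellum one was higher and the other lower than in the fed pool.

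The promoters of these 3 genes are shown because Apoa4 and Apom carry the largest differences and Apoa1 is the neighbour of Apoa4 with a difference of the other sign. Each line gives the 250 bases before the transcript start on the gene's own strand, 5′ to 3′, from RefSeq on build GRCm38.p6. They lie at chr9:46240594-46240843 (+) for Apoa4, at chr9:46228380-46228629 (+) for Apoa1 and at chr17:35131802-35132051 (-) for Apom. Capitals mark exact matches, on either strand, to any of 10 motifs searched.
Apoa4: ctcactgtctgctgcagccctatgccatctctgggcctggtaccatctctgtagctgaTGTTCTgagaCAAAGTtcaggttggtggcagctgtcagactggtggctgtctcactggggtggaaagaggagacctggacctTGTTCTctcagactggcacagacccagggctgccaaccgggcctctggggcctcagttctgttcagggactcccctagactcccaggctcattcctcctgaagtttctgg
Apoa1: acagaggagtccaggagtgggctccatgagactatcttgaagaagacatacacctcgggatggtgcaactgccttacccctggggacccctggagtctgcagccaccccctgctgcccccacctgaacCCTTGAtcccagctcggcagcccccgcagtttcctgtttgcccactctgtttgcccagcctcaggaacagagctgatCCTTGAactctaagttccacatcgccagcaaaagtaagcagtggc
Apom: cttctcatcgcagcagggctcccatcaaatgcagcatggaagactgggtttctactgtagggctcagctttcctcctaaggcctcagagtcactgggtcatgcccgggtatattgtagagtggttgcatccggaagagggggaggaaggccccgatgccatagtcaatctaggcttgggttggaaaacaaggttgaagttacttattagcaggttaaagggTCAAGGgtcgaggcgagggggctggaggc

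The Apoa4 window held TGTTCT, a half-site of the glucocorticoid receptor, at 192 and at 110 bases before the start, and 16.1% of 32851 RefSeq windows of the same length held it on either strand. It also held CAAAGT, part of sites bound by Hnf4a, at 182 bases before the start (12.6% of windows). TCAAGG, part of sites bound by Nr5a2, was found on the opposite strand in the Apoa1 window at 122 and 45 bases before the start and on the gene's strand in the Apom window at 29 bases (12.5% of windows). The other 7 motifs had no match in the 3 windows. They were AGGTCA (14.0% of windows), a direct repeat of AGGTCA with any 1 base between the copies (0.0335%), GTTAAT (6.43%), TATAAA (12.4%), CACGTG (6.02%), AGATAA (9.99%) and GGGCGG (32.7%). No 2 matches overlapped in these windows.

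Apoa2, the second protein of high-density lipoprotein, showed groups that overlapped in both regions. Its fasted hypothalamus ratios were 1.23, 1.29 and 1.03 against 1.00, 0.992 and 1.14 in the fed pool, a difference of 0.17 ± 0.11 log2. In cerebellum the fasted ratios were 0.975 and 1.21 and the fed ratios 1.00, 0.927 and 1.01. The difference of 0.15 ± 0.12 log2 there rested on fasted replicate 2, without which it was -0.00 (-0.0033).

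Apoc1, a small apolipoprotein that slows the clearance of triglyceride-rich particles, went in opposite directions in the 2 regions. In hypothalamus its fasted ratios were 0.870, 0.815 and 0.781, all below the fed ratios of 0.988, 1.00 and 1.06, and the difference was -0.31 ± 0.05 log2. In cerebellum the fasted ratios of 1.14 and 1.10 lay above the fed ratios of 1.01, 0.932 and 1.00, with a difference of 0.19 ± 0.06 log2. The cerebellum difference depended on the scaling. It was 0.06 ± 0.08 with 75th percentile scaling and 0.13 ± 0.11 with quantile normalization over all arrays.

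Apoc3 was set in cerebellum by a single array. Its fasted ratios there were 1.29 and 1.29, and the fed ratios were 0.966, 2.26 and 1.00, so the fasted arrays lay between fed replicate 2 and the other fed arrays. The difference was -0.00 ± 0.31 log2 (-0.0033), and without fed replicate 2 it was 0.40 ± 0.07. In hypothalamus the fasted ratios, 1.18, 1.09 and 1.08, lay above the fed ratios of 1.00, 1.02 and 0.919, and the difference was 0.19 ± 0.27 log2. The SE is wide because the fit takes 1 spread for each probe over all 4 pools, and without that fed cerebellum array it was 0.06.

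Apod differed in sign between the regions by small amounts. Its fasted hypothalamus ratios of 0.894, 0.941 and 0.955 lay just below the fed ratios of 1.08, 1.00 and 0.969, a difference of -0.13 ± 0.05 log2. In cerebellum the fasted ratios of 1.09 and 1.17 lay above the fed ratios of 1.01, 1.00 and 0.978, a difference of 0.18 ± 0.06 log2. This cerebellum difference was 0.05 ± 0.05 with 75th percentile scaling and 0.09 ± 0.07 with quantile normalization over all arrays.

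Apoe, the main apolipoprotein of brain lipoproteins, had overlapping groups in both regions. The fasted hypothalamus ratios were 1.02, 0.876 and 0.884 against fed ratios of 1.00, 0.904 and 1.05, and the difference was -0.09 ± 0.10 log2. The fasted cerebellum ratios were 1.02 and 1.03 against 0.813, 1.03 and 1.00, with a difference of 0.12 ± 0.11 log2. Without fed replicate 1 of the cerebellum this was 0.01, and with 75th percentile scaling it was -0.01. The plot of changes shows that the difference of Apoe lay within about 1 SE of 0 in both regions.

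**Figure D2:**
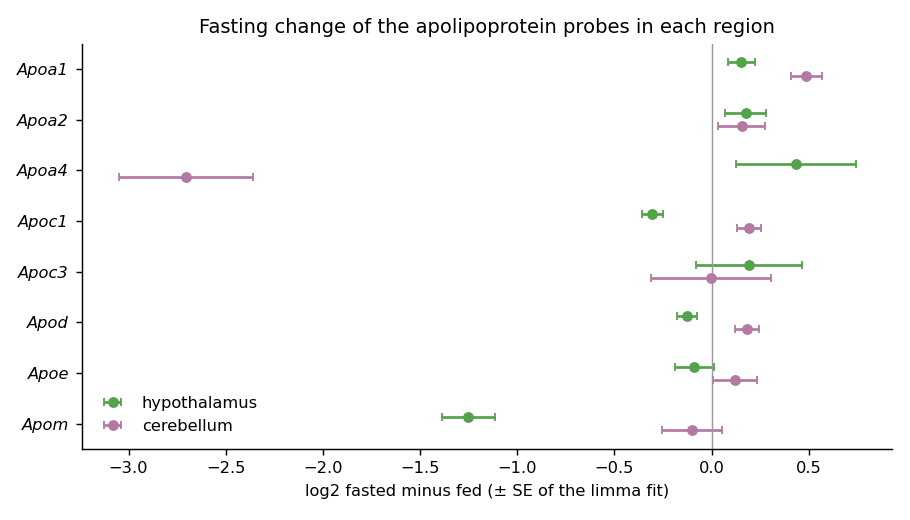
Fasting change of each apolipoprotein probe, log2 fasted minus fed, in hypothalamus (green) and cerebellum (purple), with bars of 1 SE of the limma fit over 11 arrays. Apoa4 in cerebellum (-2.71) and Apom in hypothalamus (-1.25) stand apart, and Apoc1 and Apod have opposite signs in the 2 regions.

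Over the 8 members, the limma fit over all probes (Benjamini-Hochberg adjusted p under 0.05) called 2 lower (Apoc1 and Apom) and 0 higher in hypothalamus, where 14.2% of all probes were called, 6.34% higher and 7.89% lower. In cerebellum it called Apoa1 higher and Apoa4 lower, where 20.9% of all probes were called, 9.66% higher and 11.2% lower. None of these 4 calls was made with quantile normalization, and only that of Apom with replicate number as a block in the arrays of 1 region. Arrays of the fasted and fed pools did not overlap for 5 members in hypothalamus, 2 higher and 3 lower, against 37.3% of all probes, 17.8% higher and 19.5% lower. They did not overlap for 4 members in cerebellum, 3 higher and 1 lower, against 50% of all probes, 25.1% higher and 24.9% lower. These counts come from the values the members were chosen on and carry no weight of their own. The median change of the 8 members was 0.03 log2 in hypothalamus and 0.14 in cerebellum, and that of all probes was 0.00 (0.0015) and 0.01. The median of the members in hypothalamus was negative, at -0.01 without scaling between arrays and at -0.07 with 75th percentile scaling, which moved the median of all probes to -0.11.

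Of the 8 members 5 lie in 2 gene clusters of the RefSeq assembly GRCm38.p6. On chromosome 9 the order is Apoa1, Apoc3, Apoa4 and Apoa5, and Apoa5, which raises the clearance of triglycerides, was not called in either region (-0.13 ± 0.07 in hypothalamus and -0.14 ± 0.08 in cerebellum). In cerebellum, of the genes flanking this cluster, Sidt2 (-0.34 ± 0.06, adjusted p = 0.0037, limma) and Bud13 (-0.19 ± 0.04, adjusted p = 0.0154) were lower, and 4931429L15Rik was higher in hypothalamus (0.36 ± 0.05, adjusted p = 0.00562), while in cerebellum Pafah1b2, Sik3 and Zpr1 lay between -0.20 and 0.16 and were not called. On chromosome 7 the order is Apoc2, Apoc4, Apoc1 and Apoe. Apoc2, the activator of lipoprotein lipase, stood at 0.71 ± 0.30 log2 in cerebellum with no call (adjusted p = 0.131), and Apoc4 at 0.26 ± 0.08 in hypothalamus (adjusted p = 0.0674). Tomm40, the neighbour of Apoe that encodes a mitochondrial import pore, had the signs of Apoc1 (-0.20 ± 0.07 in hypothalamus and 0.22 ± 0.08 in cerebellum) and was called in neither region. Bcam, the third gene beyond Apoe, was lower in cerebellum (-0.28 ± 0.07, adjusted p = 0.0242). The size of the Apoa4 difference in cerebellum was not shared by any gene of its cluster or by the 6 flanking genes.

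**Figure D3:**
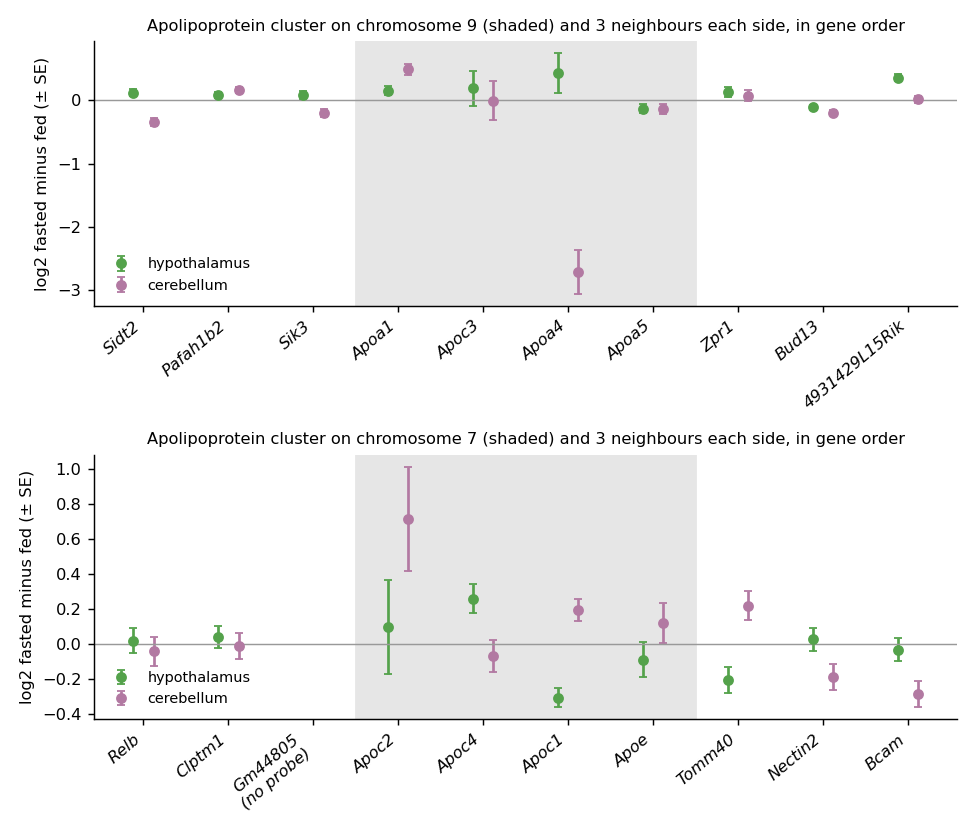
Fasting change, log2 fasted minus fed ± SE, of the genes of the apolipoprotein clusters on chromosomes 9 (top) and 7 (bottom, shaded areas) and of 3 neighbours on each side, in gene order without distances. Gm44805 has no probe with a single symbol. Apoa4 in cerebellum, at -2.71, lies far from the other genes of the chromosome 9 cluster, which stand between -0.14 and 0.49 in that region.

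Likeness between genes was measured as Pearson's r of log2 ratios over the 11 arrays, which share pools, scaling and fed denominators, so no p is given. Among 950 named probes whose SD over the arrays was at least 0.5 times that of Apoa4, those most like it were Kcnj5, a potassium channel gene (r = 0.97), Dlk1, a Notch-type ligand gene (0.94), Pcsk6, a protease gene (0.94), Slc30a5, a zinc transporter gene (0.93), and Ogn, a proteoglycan gene of meninges (0.93). Their changes in cerebellum lay between -1.70 (Pcsk6) and -1.37 (Kcnj5), smaller than that of Apoa4. In hypothalamus Kcnj5, Dlk1 and Pcsk6 lay within 0.04 log2 of 0, Slc30a5 stood at 0.21 and Ogn at 0.49. The same measure for Apom, added after its values had been seen, gave 2410003L11Rik and Slc17a7, a vesicular glutamate transporter gene (0.99 each), Trim61 (0.98), AI987944 (0.97) and 4930511A02Rik (0.97) among 2516 probes. Their changes in hypothalamus lay between -1.59 and -0.63 log2. Among the members themselves the highest correlation over the 11 arrays was between Apoc1 and Apom (r = 0.80) and the lowest between Apoa4 and Apod (r = -0.79).

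Genes that act with apolipoproteins were taken from 6 lists of receptors, transporters, lipases, transcription factors, satiety signals and other apolipoproteins. Of their 66 measured genes, 10 were called in hypothalamus, 2 higher and 8 lower (15.2%), close to the 14.2% of all probes. In cerebellum 15 were called, 5 higher and 10 lower (22.7%), close to the 20.9% of all probes. The median change of the 66 genes was -0.03 log2 in both regions, against 0.00 (0.0015) and 0.01 for all probes.

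Genes of lipid loading, efflux and assembly were lower in the fasted cerebellum in 5 of 10 cases, and 0 were higher. That is 50% of the list, against 20.9% of all probes called, and no test of a list was run. Abca1, the transporter that loads cholesterol onto Apoa1 and Apoe, had fasted ratios of 0.598 and 0.584 against fed ratios of 1.10, 1.00 and 0.985. The groups did not overlap, and Abca1 fell by 0.80 ± 0.06 log2 (adjusted p = 5.8e-05, limma). Mttp, which loads lipid onto Apob, fell by 0.84 ± 0.08 (adjusted p = 0.000197), with fasted ratios of 0.548 and 0.555 against 1.00, 1.08 and 0.890. Abcg4, a sterol transporter gene, stood at -0.29 ± 0.06 (another probe at 0.05 was not called), P4hb, the partner subunit of Mttp, at -0.28 ± 0.08, and Abca7, the fifth, at -0.22 ± 0.07 (adjusted p = 0.0490), a call lost when any of 8 arrays was left out alone. The median of this list was -0.24 log2 in cerebellum, against 0.01 for all probes. In hypothalamus 3 of the 10 (30%) were lower and 0 higher, against 14.2% of all probes called. These were Abca7, a phospholipid transporter gene (-0.37 ± 0.06, adjusted p = 0.00756), Lcat, which esterifies cholesterol on lipoproteins (-0.26 ± 0.06, adjusted p = 0.0197), and Pltp, the phospholipid transfer protein gene (-0.19 ± 0.05, adjusted p = 0.0401). The interaction test of limma gave a more positive change in hypothalamus than in cerebellum for Abca1 (0.98 ± 0.09, adjusted p = 0.000165), Mttp (0.96 ± 0.11, adjusted p = 0.000734) and P4hb (0.38 ± 0.11, adjusted p = 0.0382). That test called 17.7% of all probes, 8.66% with a more positive and 9.01% with a more negative change in hypothalamus.

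Receptors of lipoproteins and their partners were called lower in 3 of 11 cases in cerebellum and in 1 in hypothalamus, with 0 higher in both. These are 27.3% and 9.09% of the list, against 20.9% and 14.2% of all probes called. Lrp1b, a large receptor of the LDL receptor family, fell by 0.58 ± 0.07 log2 in cerebellum (adjusted p = 0.000412), with fasted ratios of 0.676 and 0.649 against 1.00, 1.05 and 0.918. Lsr, a receptor for triglyceride-rich particles, stood at -0.43 ± 0.07 (adjusted p = 0.00334). Vldlr stood at -0.18 ± 0.05 (adjusted p = 0.0394), but a second Vldlr probe was called higher at 0.33 (adjusted p = 0.00263), so its direction is uncertain. In hypothalamus Apobr, a receptor for particles with Apob, was lower at -0.31 ± 0.05 (adjusted p = 0.00799). The receptors Lrp1, Lrp2, Sorl1 and Scarb1 were called in neither region.

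Of the 13 other apolipoprotein genes measured, 1 was called in hypothalamus and 2 in cerebellum. These shares of 7.69% and 15.4% lay below the 14.2% and 20.9% of all probes. Apol10b had fasted hypothalamus ratios of 0.579, 0.585 and 0.663 against 0.987, 1.00 and 1.02 and fell by 0.72 ± 0.08 log2 (adjusted p = 0.00169). In cerebellum Apoh (0.19 ± 0.05, adjusted p = 0.0381) and Apool (0.18 ± 0.05, adjusted p = 0.0256) were higher. The other Apool probes differed from it. One was also called higher in cerebellum (0.25) but was called lower in hypothalamus (-0.20, adjusted p = 0.0409), where the probe used here stood at 0.00 (0.0035), and the other was called in neither region. Apob, the core protein of low-density particles, was not called in either region (-0.19 ± 0.15 and -0.24 ± 0.17).

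Lipase genes and their regulators were called higher in 2 of 7 cases in cerebellum and 1 in hypothalamus, with 0 lower. These are 28.6% and 14.3% of the list, against 20.9% and 14.2% of all probes called. Angptl4, an inhibitor of lipoprotein lipase, was higher in both regions. Its fasted cerebellum ratios were 1.37 and 1.55 against 1.03, 1.00 and 0.929 (0.57 ± 0.06 log2, adjusted p = 0.000358). Its fasted hypothalamus ratios were 1.19, 1.18 and 1.25 against 1.03, 0.999 and 1.00 (0.26 ± 0.06, adjusted p = 0.0217), and the change was smaller there by the interaction test (-0.31 ± 0.09, adjusted p = 0.037). Pnpla2, the first lipase of stored triglyceride, was higher in cerebellum at 0.31 ± 0.08 (adjusted p = 0.0213). Lpl itself was not called, at -0.14 ± 0.07 in hypothalamus and 0.15 ± 0.07 in cerebellum.

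Of 15 genes for transcription factors of apolipoprotein genes, 3 were called in hypothalamus and 2 in cerebellum. These are 20% and 13.3% of the list, against 14.2% and 20.9% of all probes called. In hypothalamus the orphan receptor gene Esrra (-0.32 ± 0.08, adjusted p = 0.0259) and the coactivator gene Ppargc1a (-0.29 ± 0.05, adjusted p = 0.00875) were lower and Nr0b2 was higher (0.20 ± 0.05, adjusted p = 0.0409). In cerebellum the oxysterol receptor gene Nr1h3 was lower (-0.27 ± 0.08, adjusted p = 0.0404) and the retinoid receptor gene Rxrb higher (0.27 ± 0.06, adjusted p = 0.0142). Hnf4a, a regulator of the chromosome 9 cluster in liver, had SEs of 0.57 and 0.64 log2 and was not called.

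Of 10 genes of gut satiety peptides and satiety receptors, 1 was called in each region. This share of 10% lay below that of all probes, 14.2% in hypothalamus and 20.9% in cerebellum. Cck, cholecystokinin, had fasted hypothalamus ratios of 0.591, 0.641 and 0.632 against 1.19, 1.00 and 0.945 and fell by 0.75 ± 0.11 log2 (adjusted p = 0.00508). Its receptor gene Cckbr was lower in cerebellum (-0.27 ± 0.06, adjusted p = 0.0133).

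**Figure D4:**
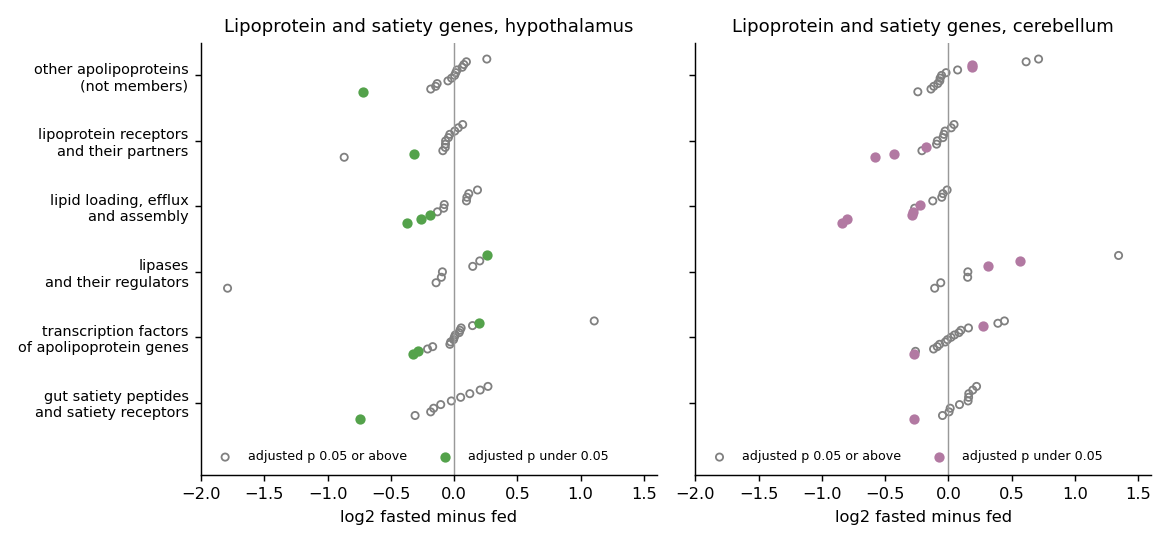
Fasting change, log2 fasted minus fed, of 66 genes in 6 lists of lipoprotein and satiety genes in hypothalamus (left) and cerebellum (right). Each point is a gene, open where the adjusted p was 0.05 or above and filled where it was under 0.05 (limma). Filled points of lipid loading, efflux and assembly lie below 0 in both regions, 3 of 10 in hypothalamus and 5 of 10 in cerebellum. Of all probes 14.2% and 20.9% were called in these regions.

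Of the 25 calls in the 6 lists, 10 were kept whichever 1 of the 11 arrays was left out, those of Abca1, Mttp, Lrp1b, Lsr and Angptl4 in cerebellum and of Apol10b, Abca7, Apobr, Cck and Ppargc1a in hypothalamus. With quantile normalization over all arrays 23 of the 25 were lost, all but Abca1 and Mttp in cerebellum, and within regions 24, all but Abca1. At most 1.33% of all probes were called in a region with it. With replicate number as a block in the arrays of 1 region all 25 were lost, where 0.137% of all probes were called in hypothalamus and 0% in cerebellum. The interaction calls of Abca1, Mttp, Lrp1b, Cck and Apol10b were kept whichever array was left out, those of P4hb and Angptl4 were lost when any of 9 and any of 8 arrays was left out alone, and none was kept with quantile normalization.

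Markers of cell types and neighbouring tissue moved in the same comparisons, and their part in the results above was not tested. Over all probes 14.2% were called in hypothalamus and 20.9% in cerebellum. In hypothalamus, where Apom was lower, 6 of 6 thalamus and habenula genes were called lower, led by Pou4f1 (-2.01) and Prkcd (-0.78), and their mean log2 ratio lay between -0.92 and -0.79 on the fasted arrays against -0.06 to 0.04 on the fed ones. Of 10 cerebellum genes 5 were called higher and 1 lower there, with an array mean of 0.48 to 0.56 in the fasted pool against -0.04 to 0.12. Choroid plexus genes were called lower in 2 of 8 cases and higher in 1, with Ttr, the transthyretin gene, at -0.81 and Otx2 at -0.36, and array means of -0.21 to -0.13 against -0.09 to 0.12. The 1 called higher was Kcnj13 (0.34). In cerebellum, where Apoa4 was lower, choroid plexus genes were called lower in 4 of 8 cases and higher in 0, led by Kl (-0.65), with array means of -0.38 to -0.26 against -0.13 to 0.03. Genes of pericytes and meninges were called lower in 4 of 11 cases and higher in 1 there, with Ogn at -1.38 and Col1a2 at -0.77 and array means of -0.29 to -0.27 against -0.07 to 0.03. Col1a1 and Col3a1 were also called lower, and the 1 called higher was Rgs5 (0.59). In hypothalamus the same list was higher in 6 of 11 cases and lower in 0. The thalamus and habenula genes were also called lower in 2 of 6 cases in cerebellum, with 0 higher. These were Synpo2 (-0.23) and Prkcd (-0.22), while Pou4f1 stood at 1.03 ± 0.43 there with no call. Of 8 liver and gut genes, the source of the A and C apolipoproteins in blood, 1 was called in hypothalamus, Ttr, which is also a choroid plexus gene, and 0 in cerebellum. Alb stood at 0.40 ± 0.51 and 0.06 ± 0.57 and was called in neither region. Fabp1 (0.29 ± 0.68 and 0.93 ± 0.76) and Fabp2 (-0.10 ± 0.29 and 0.89 ± 0.32) were not called either. With such SEs the lack of a call does not show that these genes were unchanged. The array means of this list overlapped in both regions. In cerebellum they ran from 0.08 to 0.27 in the fasted pool against -0.16 to 0.09. For Apoe and Apod, astrocyte genes were called lower in 2 of 10 cases in hypothalamus and 5 in cerebellum, with 1 higher in cerebellum, and oligodendrocyte genes lower in 2 of 9 and 3 of 9, with 1 higher in cerebellum. Microglia genes were lower in 5 of 10 cases in hypothalamus and 2 in cerebellum. Endothelium genes were lower in 3 of 8 cases and higher in 1 in cerebellum, led by Pecam1 (-0.86), and 0 were called in hypothalamus. The endothelium gene called higher was Cldn5 (0.26). Ependyma genes were higher in 3 of 5 cases in cerebellum and lower in 1 in hypothalamus. Of 4 blood cell genes 1 was higher and 2 lower in hypothalamus and 2 were higher in cerebellum, led by Alas2 (0.70 and 0.34). The 2 called lower in hypothalamus were S100a9 (-0.39) and S100a8 (-0.17). Pituitary genes were higher in 3 of 7 cases and lower in 1 in hypothalamus and higher in 2 in cerebellum, led in both by Prl, the prolactin gene (3.60 and 3.07). The pituitary gene called lower was Tshb (-0.31). Hypothalamus genes were called in 0 of 10 cases in hypothalamus and in 1 in cerebellum, Pomc (1.32).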

How the data were processed

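Per the labels, biotin-labelled cRNA of pooled RNA was hybridised to single-colour CodeLink arrays and read with streptavidin Cy5. The deposited values are linear ratios, as judged from the values. In either region, the fed arrays had a median of 1 for each of 34999 probes (tolerance 1e-06), so the authors' ratios are relative to that median. What software, background correction or scaling came before is not given in the labels or file headers used here. Here the arrays were first scaled to a median ratio of 1, ratios below a floor of 0.1 were raised to it, and values were put on the log2 scale. limma 3.58.1 (R 4.3.3) fitted the 4 group means over 11 arrays with 7 residual degrees of freedom and a variance prior without trend. Its tests were two-sided with Benjamini-Hochberg adjustment over all probes, called at an adjusted p under 0.05. The limma fit was tested on simulated log2 ratios with known changes. Their noise was independent and equal on fed and fasted arrays, so the narrower spread of the deposited fed arrays was not covered. The number of arrays limits the precision.

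Probes were named from the platform annotation, 21590 with 1 symbol, 681 with several (not used) and 12728 with none here. The probe with the smallest residual SD stood for a gene of a list. Members and lists were chosen with earlier results of these data known. Named are all members and, of each list and region, up to 4 called genes with the largest change (Abca7 in cerebellum was named beyond these after its value was seen to complete the count), the 5 probes most like Apoa4, and, of marker lists, up to 2 genes each. Further marker genes were named after their values were seen, where a list had calls in both directions or wide SEs. Cluster neighbours and the promoter motifs were added after the values were seen. Promoter windows were found for 6 members. The labels name no step shared by arrays of the same replicate number, so the main fit did not pair them. Alternatives were scaling, floor, a filter, the variance trend, replicate blocks, single-region fits and leaving out each array.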

Additional observations from a re-analysis of the deposited data

Results flagged for a closer look

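Several genes had fasting changes that differed between hypothalamus and cerebellum, given as the log2 change in hypothalamus minus that in cerebellum. For the members, picked out because every fasted array lay on one side of the fed mean in hypothalamus and on the other side in cerebellum, the difference was not tested. It was 3.14 ± 0.46 for Apoa4, -0.50 ± 0.08 for Apoc1, 0.20 ± 0.41 for Apoc3 and -0.31 ± 0.08 for Apod. That of Apoc3 was smaller than its SE and rests on fed replicate 2 of the cerebellum, without which its cerebellum change turned to 0.40. This rule looks at signs, so it leaves out Apom (-1.15 ± 0.21) and Apoa1 (-0.33 ± 0.11). It also leaves out Apoe (-0.21 ± 0.15) and Apoa2 (0.02 ± 0.16).

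Among the list genes named in the text, the interaction test of limma passed an adjusted p of 0.05 for 9. The difference was 0.98 for Abca1, 0.96 for Mttp, 0.61 for Lrp1b, 0.38 for P4hb and 0.34 for Lsr, which were lower in cerebellum. It was -0.97 for Cck, -0.65 for Apol10b and -0.27 for Apobr, which were lower in hypothalamus, and -0.31 for Angptl4, which was higher in both regions and more so in cerebellum. In all 17.7% of probes passed this test. Of the 10 pathway genes that passed it, these 9 and Lipe (-3.14), all 10 were lost under both quantile settings. The calls of Lsr, Apobr, Angptl4, Cck and Lipe were lost with the replicate block in the fit of all arrays, and those of Lsr, Apobr, P4hb, Angptl4 and Lipe without 8 or 9 of the 11 arrays, each left out alone.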

How the results depend on the processing

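Counts of calls depended strongly on scaling and on the treatment of replicates. With 75th percentile scaling 9254 probes were called in hypothalamus (7.72% higher, against 44.6% as reported) and 11088 in cerebellum (15.6% higher, against 46.3%), and 22 and 23 of the 66 pathway genes. Without scaling 24.1% and 37.2% of the calls were higher. With quantile normalization over all arrays the counts were 32 in hypothalamus (59.4% higher), 441 in cerebellum (12.7% higher) and 153 for the difference between regions, and 0 and 2 pathway genes. Within regions they were 25 (40% higher), 466 (25.1% higher) and 128, and 0 and 1 pathway genes, with 8 pathway genes of hypothalamus at an unadjusted p under 0.05 under both. The fit of 1 region's arrays alone gave 2210 in hypothalamus and 9 pathway genes in cerebellum. Leaving out each array gave 1940 to 5438 probes in hypothalamus, lowest without fasted replicate 3 and also low without fed replicate 1 (2442), fed replicate 2 (2165) and fasted replicate 2 (2329), 4540 to 7549 in cerebellum, lowest without fasted replicate 1, and 4351 to 6307 for the difference. Pathway genes ranged from 5 to 12 in hypothalamus and from 7 to 15 in cerebellum. Quantile normalization gives its arrays 1 shared distribution, while the deposited ratios, relative to the fed median, were narrower on fed arrays. The interquartile range of log2 ratios was 0.016 to 0.099 on fed arrays and 0.245 to 0.311 on fasted arrays. The cause of these dependences was not tested.

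Deviations of arrays with the same replicate number correlated by 0.07, 0.10 and 0.07 in hypothalamus and by 0.04 and -0.02 in cerebellum. With different numbers they correlated by -0.088 to 0.006 in hypothalamus and by -0.058 to 0.058 in cerebellum. The deviations of the 2 fasted cerebellum arrays mirror each other by construction, so the cerebellum values cannot show whether replicate numbers pair. With the replicate block in the fit of all arrays calls numbered 2765 for hypothalamus, 4993 for cerebellum and 3984 for their difference, with 9 pathway genes in cerebellum. With the replicate block in the arrays of 1 region alone limma called 48 and 0 probes and 0 pathway genes in either region, where 10789 and 8445 probes and 21 and 17 pathway genes had an unadjusted p under 0.05.

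The members kept the sign of their change under every setting, except Apoa2, Apoc3, Apoe and Apom in cerebellum. Some kept only the sign, as Apoc1 (0.06 ± 0.08) and Apod (0.05 ± 0.05) in cerebellum with 75th percentile scaling. Apoa4 in cerebellum ranged from -3.01 to -2.28 and Apom in hypothalamus from -1.36 to -0.87. Calls of members under these settings are given with nothing read from them. Under both quantile settings none of the 8 was called, where at most 1.33% of all probes were. Apoc1 had no call in hypothalamus with the replicate block in all arrays (7.90% of all probes called) or in that region alone (0.137%). With the block in the cerebellum alone 0 probes were called, so the lost calls of Apoa1 and Apoa4 say nothing about these genes. Apoa4 stood there at -2.36 ± 0.12 log2.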
